A study of Mus musculus with 6 samples.

Results

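The genes described here are 4 FXYD proteins (FXYD1, FXYD5, FXYD6 and FXYD7) and 3 beta subunits of the sodium pump (ATP1B1, ATP1B2 and ATP1B3), measured in C2C12 myotubes after knockdown of *Dj1*. They were found by gene name in the deposited probe report, which gave 10 probes for these 7 genes among 45281 probes for 30854 gene names. The genes were selected on their values in the same comparison of *Dj1* knockdown with scramble myotubes, so their values are given as a description and no test is read from them. C2C12 cells are mouse myoblasts that stop dividing in low serum and fuse to form myotubes with many nuclei. Cells received 60 nM scramble siRNA or 60 nM DJ-1 siRNA, were switched to differentiation 48 h later and were differentiated for 4 days. There were 3 arrays per group, each group had 1 kind of siRNA, and nothing states that the samples were separate cultures, so p-values measure only the spread between these samples, which may be technical.

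The sodium pump, Na,K-ATPase, exports sodium and imports potassium at the cost of ATP, and in muscle it restores the ion gradients that each action potential runs down. Its alpha subunit is the catalytic part, its beta subunit is a glycoprotein needed for folding and delivery to the cell surface, and a small FXYD protein with a single membrane span can bind the pair and tune its affinity for ions. FXYD1, also called phospholemman, is the main FXYD protein of heart and skeletal muscle and is a substrate of protein kinases A and C.

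Each array gave a mean signal over the beads of a probe, in intensity units, with a detection p-value. Median signal per array was between 152 and 167. The background SD, estimated from the detection p-values, was 22.3, 18.9 and 16.1 for scramble against 12.8, 12.1 and 10.96 for DJ-1 siRNA, so it was larger on every scramble array. A probe was tested where its detection p was under 0.05 on at least 3 of the 6 arrays, which 17890 probes met. After normalization on the log2 scale, 5387 of these had an adjusted p under 0.05 (limma), which is 30.1%. Of the tested probes, 16.5% were higher and 13.6% lower in *Dj1* knockdown myotubes. Among the 25% of tested probes with the dimmest signal, 656 probes were higher and 304 lower and the median log2 difference was 0.13, against 740 higher, 692 lower and a median of 0.01 in the brightest 25%. Small rises of dim probes therefore cannot be told apart from the unequal background of the groups.

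The targeted gene was examined first. Park7, the gene symbol of *Dj1*, averaged 13.53 ± 0.14 (SD, n = 3) in normalized log2 signal for scramble and 12.37 ± 0.19 (SD, n = 3) for DJ-1 siRNA. This was a log2 difference of -1.16, with an adjusted p = 0.00344 from limma and a standard error of 0.14, and 44.7% of the scramble signal was left.

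FXYD6, also called phosphohippolin, is an FXYD protein best known from brain. Its probe (ILMN_2609998) read 922, 1329.6 and 1332 in scramble and 247, 325 and 200.0 in *Dj1* knockdown myotubes. Every DJ-1 siRNA array lay below every scramble array, and the probe was detected on all 6. The mean after normalization was 10.01 ± 0.40 (SD, n = 3) on the log2 scale in scramble and 6.90 ± 0.52 (SD, n = 3) in *Dj1* knockdown myotubes, a log2 difference of -3.12 with a standard error of 0.30. With the processing as reported, only 4 of the tested probes had a lower log2 difference, as it ranked 5 from the lowest. The size depended on the background correction, since the log2 difference was -2.20 without it, and -2.17 where the arrays were also aligned at their 75th percentiles. Whether each cell held less of this RNA or fewer cells made it cannot be told apart in bulk RNA.

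FXYD5, or dysadherin, is an FXYD protein that also affects cell adhesion. It was measured by 3 probes for the same transcript. The probe ILMN_1235493 read 797, 759 and 687 in scramble against 954, 1046 and 949 after knockdown, and the groups did not overlap. ILMN_2742928 was dimmer, at 301, 297 and 288 against 312, 363.5 and 336, and did not overlap either. ILMN_2967266 overlapped, at 603.5, 680.1 and 781 against 678.5, 882 and 721. The log2 differences of the 3 probes were 0.54, 0.43 and 0.25 in that order, with standard errors of 0.11, 0.14 and 0.17, so the probes shared a sign and differed in size by about their errors. The difference of ILMN_1235493 stayed between 0.45 and 0.58 in 15 alternatives. The sizes of the other probes were not firm, since ILMN_2742928 gave 0.25 without background correction, and ILMN_2967266 gave 0.12 without scramble siRNA replicate 1 and 0.40 without scramble siRNA replicate 3.

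FXYD1 had 2 probes, for different transcript records, both close to background. ILMN_3108783 read 187.0, 191.0 and 187.5 in scramble against 162.9, 201 and 163.9 after knockdown, and the groups overlapped. ILMN_2729342 was detected on 2 scramble arrays and was not well above background on any DJ-1 siRNA array. It read 251.5, 178.8 and 211.3 in scramble against 170.8, 176.4 and 142.4 after knockdown. These groups did not overlap as deposited and overlapped after normalization, and no fold is given against a group at background. FXYD7, an FXYD protein of brain, was not well above background on any array.

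**Figure D1:**
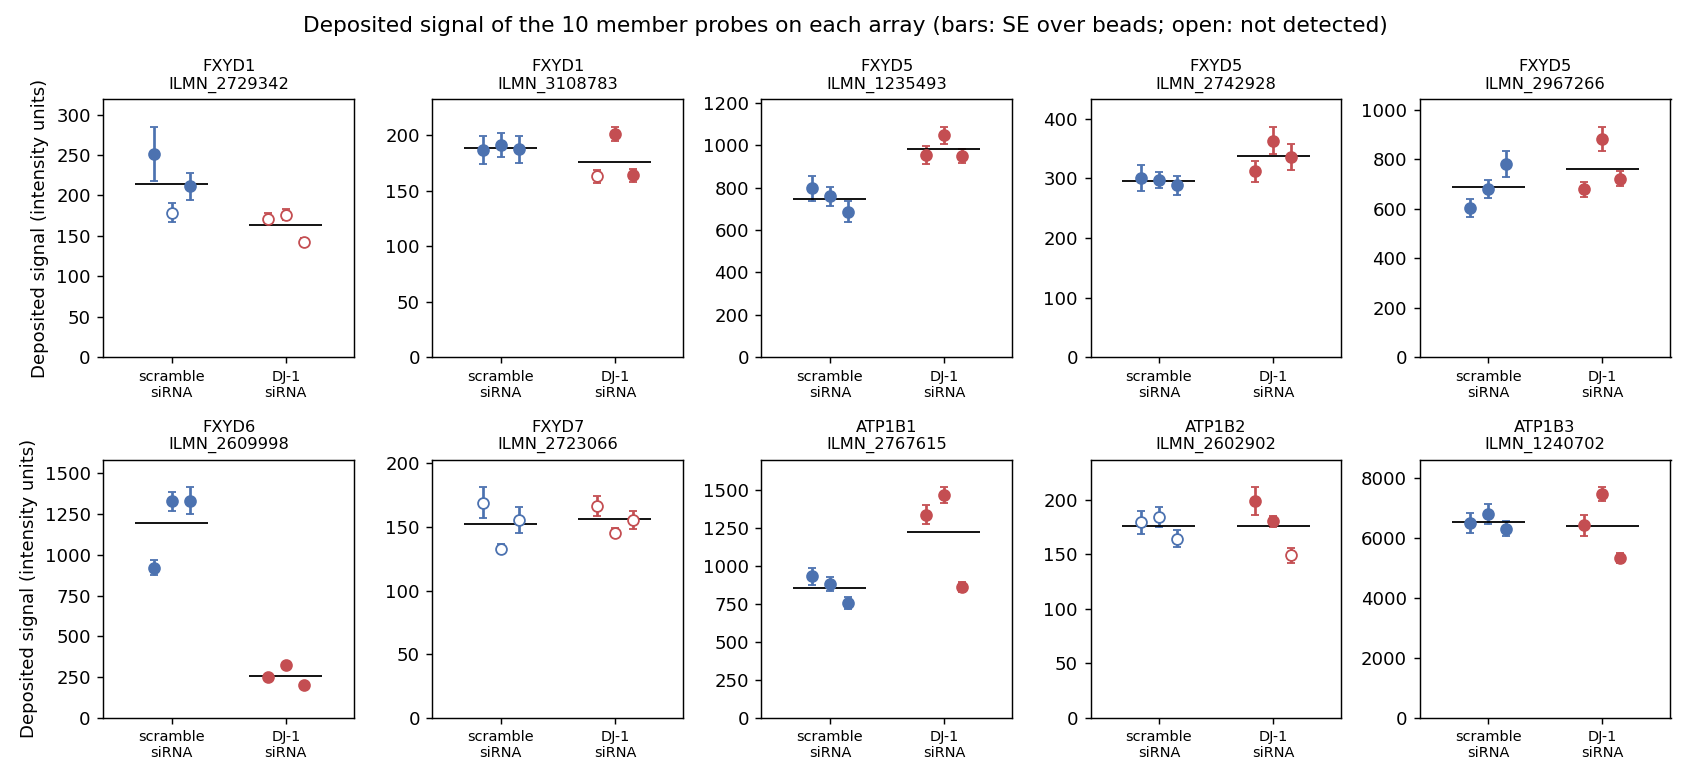
Deposited signal in intensity units (vertical axis, from 0) of the 10 probes on the 3 scramble and 3 DJ-1 siRNA arrays, with bars for the standard error over beads, lines for group means and open circles for arrays where the probe was not detected. The FXYD6 probe lies between 922 and 1332 on the scramble arrays and between 200.0 and 325 on the DJ-1 siRNA arrays.

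ATP1B1 encodes the most widely expressed beta subunit. Its probe (ILMN_2767615) read 930.3, 878 and 754 in scramble against 1336, 1464 and 858 after knockdown. DJ-1 siRNA replicate 3 lay within the scramble range as deposited, and above it after normalization. The log2 difference was 0.60 with a standard error of 0.16. ATP1B3 encodes another beta subunit and had a bright probe (ILMN_1240702), with a signal of 6517, 6815 and 6326 against 6428, 7475 and 5339. These groups overlapped, and the log2 difference was -0.08 with a standard error of 0.10 and changed sign when the arrays were aligned at their 75th percentiles rather than by quantiles. ATP1B2, a beta subunit that is also an adhesion molecule of glia, was detected on 2 DJ-1 siRNA arrays and no scramble array. Its signals overlapped, at 165 to 184 in scramble and 149 to 199 after knockdown.

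Of the 10 probes, 7 passed the filter, for 5 of the 7 genes, and FXYD7, ATP1B2 and one FXYD1 probe did not. An adjusted p under 0.05 was reached by 2 probes that were higher (FXYD5 and ATP1B1) and 1 that was lower (FXYD6), beside 16.5% higher and 13.6% lower across the array, and the higher calls dropped to 1 in 5 alternatives. Groups that did not overlap after normalization were seen for 48.5% of all tested probes, and for 4 of these. As the genes were chosen by this comparison, nothing is read from these counts.

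**Figure D2:**
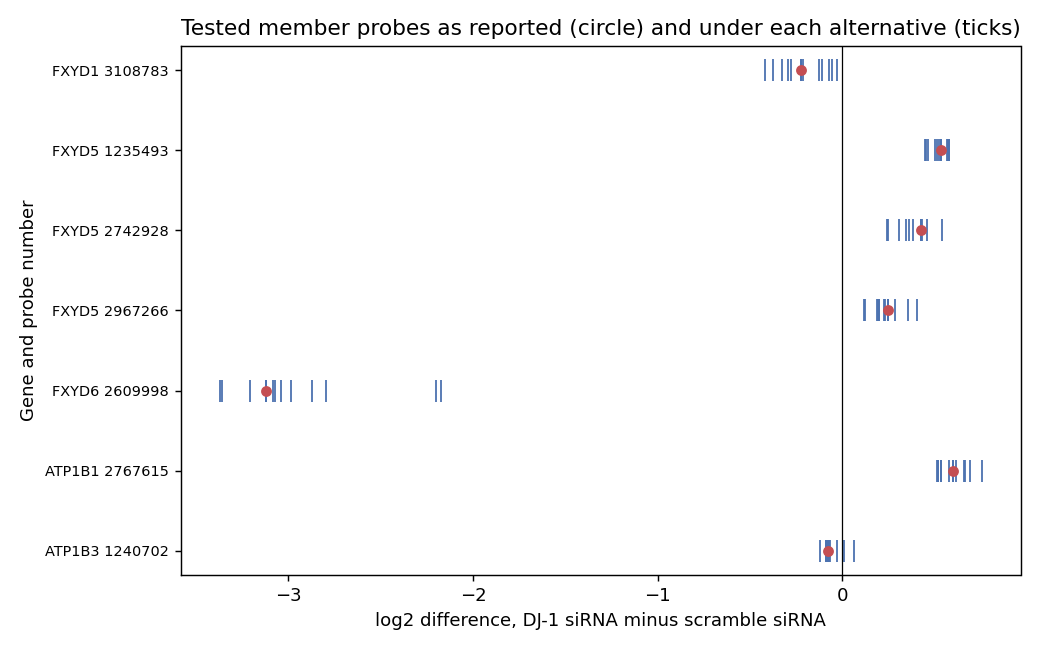
Log2 difference between *Dj1* knockdown and scramble myotubes (horizontal axis) for each of the 7 probes that passed the filter, as reported (circles) and under each other processing (ticks). The FXYD6 probe stays between -3.37 and -2.17.

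Further genes around the pump, from lists of related subunits, kinases and ion routes, were not used to choose the genes and were tested where they were detected. These lists were drawn up with earlier results of these data known. The remaining FXYD and beta-like genes (Fxyd2, Fxyd3, Fxyd4 and Atp1b4) had 7 probes, and the H,K-ATPases and Nkain genes had 9, of which none was detected on enough arrays to be tested.

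Kinases and phosphatases that act on phospholemman had 13 tested probes, of which 4 rose, 0 fell and 9 did not pass. The share called in either direction was close to the 30.1% across the array, where 16.5% were higher and 13.6% lower. The catalytic subunit of protein kinase A, Prkaca, rose on 1 of 2 probes by a log2 difference of 0.45 (standard error 0.10, adjusted p = 0.0208 from limma). Prkcd, a protein kinase C, rose by 0.48 (standard error 0.13, adjusted p = 0.0307 from limma). Both tested probes of the phosphatase subunit Ppp1cb rose, each by 0.54 (adjusted p = 0.0256 and 0.0306 from limma). The calls were not firm, as of 15 alternatives 6 ended that of Prkcd, 5 and 4 those of the Ppp1cb probes and 3 that of Prkaca, with the log2 differences between 0.38 and 0.65 in all of them.

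Other routes of sodium and potassium had 15 tested probes among the genes reported here, of which 2 fell, 0 rose and 13 did not pass. Across the array 13.6% were lower and 16.5% higher, so the share that fell was close to that of all tested probes. The inward rectifier potassium channel Kcnj12 fell, with a log2 difference of -1.18 (standard error 0.26, adjusted p = 0.0186 from limma), and the difference was -0.48 when background was not corrected. The potassium-chloride cotransporter Slc12a7 fell, with a log2 difference of -0.48 (standard error 0.13, adjusted p = 0.0334 from limma). Over all these lists 6 of 28 tested probes passed, beside 30.1% across the array, and their median log2 difference was 0.14, beside 0.05. The Slc12a7 call was lost in 11 of 15 alternatives, and its log2 difference was -0.22 without background correction, so it is not firm. The count moved both ways with the processing. With a trend in the variance prior 13 of the 28 passed, beside 6470 of 17890 across the array. Without background correction 9 passed, beside 6292. With a shift to a common 75th percentile 9 passed with the correction and 10 without, beside 5403 and 6291. With 1 array left out, 3 passed without scramble siRNA replicate 3, 2 without DJ-1 siRNA replicate 1, 2 without replicate 2 and 1 without replicate 3 of that group. Across the array, leaving out scramble siRNA replicate 3 gave 4074 calls. Leaving out DJ-1 siRNA replicate 1, 2 or 3 gave 2444, 3965 and 2612.

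**Figure D3:**
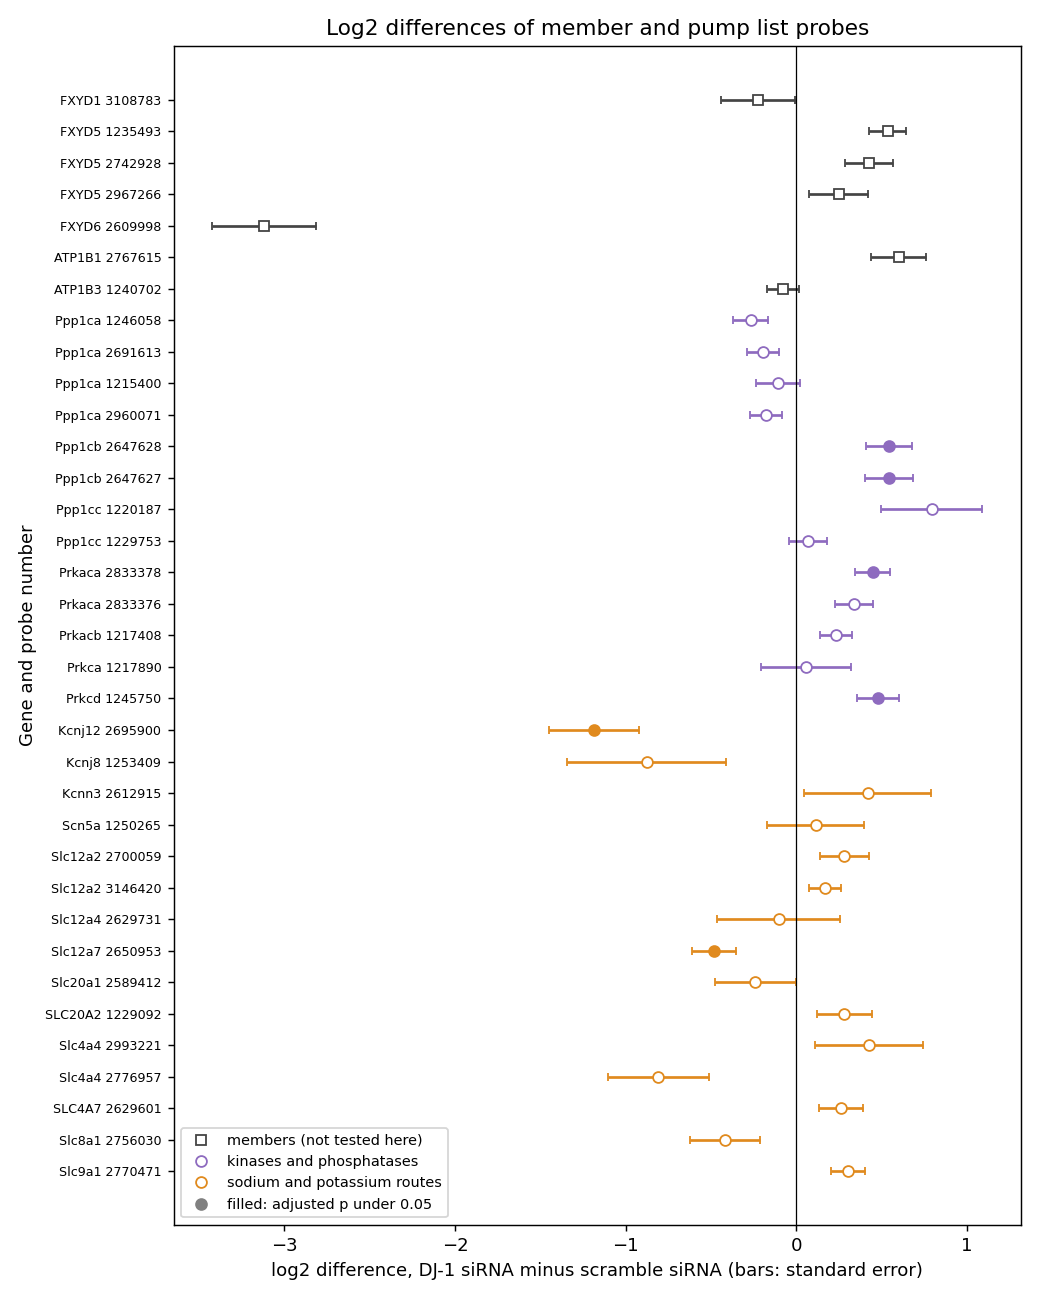
Log2 difference between *Dj1* knockdown and scramble myotubes (horizontal axis, bars for the standard error) of each tested probe, with squares for the genes chosen by this comparison and filled circles for other probes with an adjusted p under 0.05. FXYD6 lies at -3.12, and Kcnj12 lies at -1.18.

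Markers of myotubes were present, as the label implies, and moved with the groups. Of 30 tested probes of myotube genes, 15 fell, 2 rose and 13 did not pass, beside 13.6% lower and 16.5% higher across the array. The 2 that rose have the name TTN on the array and were not matched to a RefSeq gene. Not all of these calls were firm, as 1 of the 2 Actn2 probes lost its call in 8 of 15 alternatives and the other in 3, 1 of the 3 Myh8 probes in 5 and TTN probes in up to 6, and the MYH2 probe passed the filter through the scramble arrays alone. The fast myosin Myh1 fell on both probes, with log2 differences of -2.19 and -1.93 (adjusted p = 0.00284 and 0.00304 from limma). Myh4 had the lowest log2 difference of all tested probes, at -3.72 (adjusted p = 0.00224 from limma), below that of FXYD6. Its probe was detected on only 1 DJ-1 siRNA array, and its difference was -1.91 without background correction. The summed normalized signal of all 37 probes was 350026, 328152 and 334421 in scramble against 266997, 280863 and 240801 after knockdown. The brightest genes of the list, Mylpf and Acta1, did not pass the test, nor did Myog, Ckm, Myh3 and Mb. All 3 tested probes of fibroblast genes, for Dcn and Pdgfra, also fell, though Pdgfra lost its call in 8 of 15 alternatives, and the summed signal of the fat and fibroblast list, led by Dcn, was 7828, 7747 and 6517 against 3026, 3865 and 2317. Of 7 tested probes of myoblast and cell cycle genes, 1 fell, 0 rose and 6 did not pass. The median log2 difference of these 7 was 0.23, beside 0.05 across the array. The summed signal of this list overlapped, at 5099, 5386 and 4857 in scramble against 4741, 5403 and 4968 after knockdown. Pax7 and Pax3 were not well above background on any array. No probe of neurons and glia was detected on enough arrays to be tested. The part of these shifts in the lower FXYD6 signal was not tested.

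**Figure D4:**
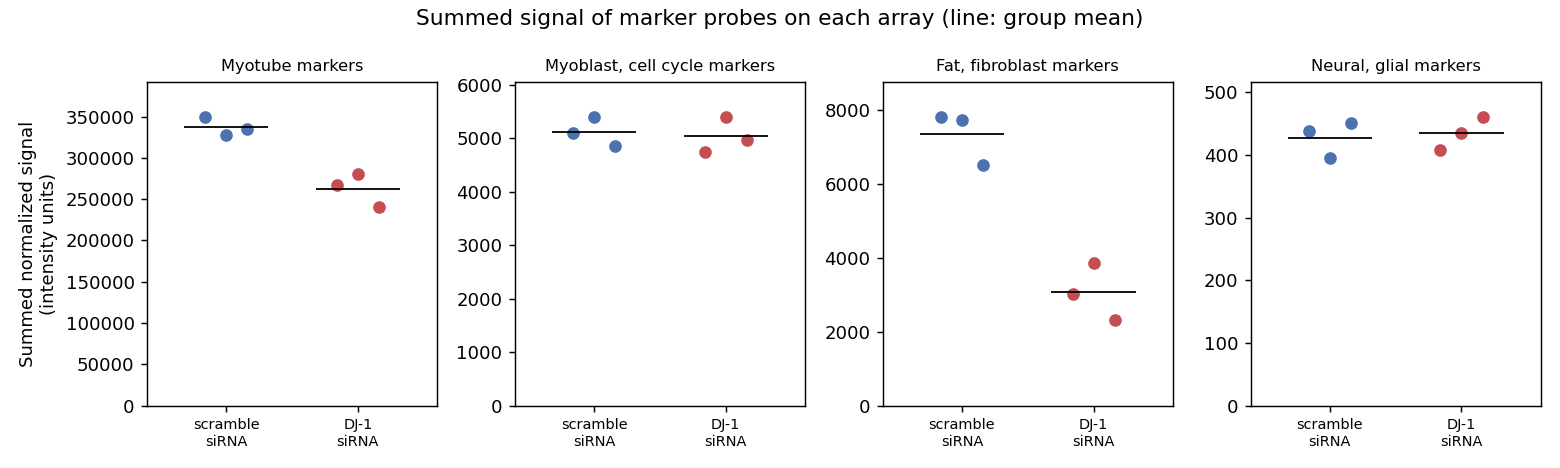
Summed normalized signal in intensity units (vertical axes, from 0) of the probes of 4 marker lists on each array, with lines for group means. The myotube and the fat and fibroblast lists are lower on every DJ-1 siRNA array than on any scramble array.

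The probes whose values over the 6 arrays were most like those of FXYD6 were for Psmc2, MT-ND4L and Ap5b1 (Pearson r = 0.9998, 0.9996 and 0.9993), and for ATP1B1 they were for Kmt2a, Fbh1 and Mterf1a (r = 0.995, 0.989 and 0.988). These are descriptions that include the separation of the groups, and an r above 0.95 was reached by 1204 tested probes with FXYD6 and by 87 with ATP1B1. Fbh1 did not pass the test between the groups, while the call of Kmt2a was lost in 6 of 15 alternatives and Mterf1a, which did not pass as reported, passed in 7 of 15.

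In the RefSeq order of protein-coding genes of GRCm38.p6, Fxyd5, Fxyd7 and Fxyd1 lie side by side, while Fxyd6 lies between Tmprss13 and Fxyd2. This order was looked up after the values were seen. RefSeq promoters were given for 5 of the 7 genes, and the 250 bases before the start are shown for the 3 genes with the clearest differences, with the E-box CANNTG in capitals on either strand. They lie at chr9:45369935-45370184 (plus strand), chr7:31042332-31042581 (minus strand) and chr1:164458356-164458605 (minus strand).
Fxyd6: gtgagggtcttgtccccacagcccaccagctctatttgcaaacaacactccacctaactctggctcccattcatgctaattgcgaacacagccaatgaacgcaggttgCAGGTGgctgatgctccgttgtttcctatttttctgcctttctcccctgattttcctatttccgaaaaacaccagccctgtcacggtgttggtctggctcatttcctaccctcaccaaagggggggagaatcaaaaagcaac
Fxyd5: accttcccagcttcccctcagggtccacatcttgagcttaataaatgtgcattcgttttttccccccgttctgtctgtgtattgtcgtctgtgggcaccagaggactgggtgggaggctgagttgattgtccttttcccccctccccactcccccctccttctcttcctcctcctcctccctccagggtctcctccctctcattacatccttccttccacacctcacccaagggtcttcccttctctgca
Atp1b1: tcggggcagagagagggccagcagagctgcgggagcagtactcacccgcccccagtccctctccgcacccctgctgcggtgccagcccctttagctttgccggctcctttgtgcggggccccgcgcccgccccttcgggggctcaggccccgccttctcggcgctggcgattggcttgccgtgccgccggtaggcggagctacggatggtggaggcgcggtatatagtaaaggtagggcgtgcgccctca
The Fxyd6 stretch held 1 E-box, which 66.2% of 32841 promoters also held, and the other stretches held none. A GC box, GGGCGG on either strand, was found at 2 places in the Atp1b1 stretch and in 32.7% of promoters. These matches are descriptions of letters and were not tested against the measurements.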

How the data were processed

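The authors scanned the arrays and deposited, per probe and array, a mean signal intensity, its standard error over beads, the bead number and a detection p-value. Per the file headers the intensity was not normalized. In R 4.3.3 with limma 3.58.1, background was corrected by normexp from the detection p-values (offset 16), and values were quantile normalized and taken to log2. Tested probes were fitted with lmFit and eBayes, with Benjamini-Hochberg adjustment over all of them and a threshold of 0.05. Gene names were updated through RefSeq of GRCm38.p6, which matched 32345 probes; the array's build is not given in the sources used here. Named genes are the chosen genes, list probes past the threshold, Park7 and the 3 most similar probes for the largest fall and rise; markers are named beside them. Some genes of the lists are not reported here and were left out of the list counts. The genes and lists were chosen with earlier results of these data known. The pipeline was tested on simulated data. With the groups' unequal background, false calls exceeded the nominal share, nearly all among dim probes. With a common background SD, false calls were mostly near the nominal share but exceeded it in some runs. The count of calls across the array may therefore be too high. The criterion on recovery was loosened to a median over runs after single runs had not met it, and none was kept on false calls. The number of arrays limits the precision. Alternatives changed the background correction, scaling, offset, filter, variance prior, array weights, block and arrays.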

Additional observations from a re-analysis of the deposited data

How the results depend on the processing

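Across the array 5387 probes passed, 3519 with no filter on dim probes, where 45281 were tested, and between 2444 (without DJ-1 siRNA replicate 1) and 5302 with 1 array left out; without DJ-1 siRNA replicate 3 it was 2612. For the pump lists 6 probes passed, 2 with no filter and between 1 and 6 with 1 array left out. With no background correction and a shift to a common 75th percentile 10 passed, beside 6291 across the array. With a trend in the variance prior 13 passed, beside 6470 across the array. For the chosen genes 3 probes passed, 2 to 4 under the alternatives and between 2 and 3 with 1 array left out. With the replicate block the counts were 4350, 4 and 3. The replicate numbers were not taken as pairs, because same-numbered arrays deviated together with correlations of 0.0537, 0.0474 and 0.0199, although each array correlated best with its own number. These correlations were taken after quantile normalization, so they cannot show a signal level shared by 2 arrays. As deposited, the median signal of replicates 1, 2 and 3 was 162.2, 167.4 and 153.5 for scramble and 161, 166.9 and 152.3 for DJ-1 siRNA. Whether same-numbered arrays were handled together was not tested. Slc12a7 lost its call in 11 of 15 alternatives, Prkcd in 6, the Ppp1cb probes in 5 and 4, Prkaca in 3 and Kcnj12 in 1 of 14; the cause was not tested. The FXYD6 log2 difference lay between -3.37 and -2.17. With a detection p under 0.01 required on all arrays, 2658 probes were higher and 2646 lower, against 2957 and 2430 as reported. Probes near background limit what can be said of FXYD1, FXYD7 and ATP1B2.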

Other observations

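Probes under 1 gene name did not always move together. For Ttn, the giant spring protein of the sarcomere, 7 probes were tested, of which 3 fell, 2 rose and 2 did not pass. The largest rise was a log2 difference of 1.77 (ILMN_1228221, adjusted p = 0.00277 from limma), and the falls were -0.59, -0.76 and -0.64. Both rising probes, and the falling probe at -0.59, have the name TTN on the array only and were not matched to a RefSeq gene. The tested probes that were matched to Ttn fell or did not pass. The smaller rise, of ILMN_2744368, was of a dim probe and lost its call in 6 of 14 alternatives, and the falls lost theirs in 4, 3 and 1 of 15. Ttn was singled out after its values were seen, and why its probes differ was not tested.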
